A study of Mus musculus with 4 samples.

Results

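Integrins, syndecans and tetraspanins are membrane proteins through which a cell holds and senses its surroundings. On the 4 arrays they were taken by gene name: integrin alpha subunits (Itga), integrin beta subunits (Itgb), syndecans (Sdc), and tetraspanins named Tspan or Cd9, Cd63, Cd81, Cd82 and Cd151. The rule found 54 genes, read by 102 probes in 111 spots, of 41174 probes in 43379 non-control spots. Of the 54 genes, 53 could be tested, among 21363 genes tested in all: 16 of 17 integrin alpha subunits, all 8 beta subunits, all 4 syndecans and all 25 tetraspanins. Itga2, the alpha subunit of a collagen receptor, was not tested, because neither of its probes was well above background on any array.

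The samples were ZHBTc4 cells, 1 mouse embryonic stem cell line; doxycycline turns off the transgene from which it makes Oct4 (Pou5f1). In the dox+TCP group (2 arrays) cells received doxycycline and TCP, an addition the labels do not spell out, and in the dox group (2 arrays, titled as the control in the labels) doxycycline alone. Doxycycline was given as 2 µg for 48 h, after the cells had been moved from irradiated feeder fibroblasts to gelatin. On every array Cy5 held the RNA of these cells and Cy3 the reference, ZHBTc4 cells with no treatment named. The dyes were never swapped, so dye effects cannot be told apart from the effect of treatment in a comparison with the reference. The labels describe the replicates as biological and do not say whether the reference was 1 extract.

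An integrin is a pair of 1 alpha and 1 beta subunit that binds matrix proteins or receptors on other cells and links them to the actin cytoskeleton. The alpha subunit largely sets which ligand is bound, and beta1 is the partner of many alpha subunits. Syndecans carry heparan sulphate chains that bind growth factors and matrix and act as co-receptors beside integrins. Tetraspanins have 4 membrane-spanning segments, gather integrins and other partners into membrane domains, and several of them are abundant on endosomes and extracellular vesicles.

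Values are log2 ratios of Cy5 over Cy3 after background correction and loess, so 1 is a 2-fold higher and -1 a 2-fold lower signal than in the reference. A gene was called when limma's adjusted p over all genes tested was under 0.05. A gene is represented by its brightest tested probe. Each group mean comes from 2 arrays, with the standard error (SE) of a fit over all 4, and fewer cells of a type cannot be told apart from less RNA per cell. On the arrays 74.3 to 78.1% of spots were well above background in Cy5 and 68.8 to 78.1% in Cy3, and none was saturated. Pou5f1 had log2 ratios of -3.29 and -3.28 on the dox+TCP arrays and -3.38 and -3.62 on the dox arrays, and its group means of -3.29 and -3.50 were called (adjusted p = 0.0147 and 0.0105). All 8 embryonic stem cell markers were well above background in the reference channel on all 4 arrays, and 6 of 8 fell with dox+TCP and 8 of 8 with dox. None of 9 trophoblast markers was called, while 2 with dox+TCP and 1 with dox had an unadjusted p under 0.05 by limma. Of all genes 33.2% and 32.8% did. The median log2 ratio of the trophoblast markers was 1.74 and 0.20 on dox+TCP replicates 1 and 2 and 2.65 and 0.56 on dox replicates 1 and 2. In 6 of these 9 the Cy3 reference signal was itself at least 2-fold brighter on the replicate 2 array than on the replicate 1 array in both groups, which was true of 0.66% of all genes. Of 8 fibroblast markers of the feeder layer 1 fell with dox+TCP and 2 with dox, and none rose.

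Against the reference, 16 of 53 members were called with dox+TCP (11 higher and 5 lower), where 15.4% of all genes were called, 7.32% higher and 8.08% lower. With dox, 14 of 53 were called (7 higher and 7 lower), where 14.6% of all genes were called, 6.32% higher and 8.26% lower. Both comparisons share the reference and the estimate of the spread. The median member stood at 0.10 with dox+TCP and -0.06 with dox, beside 0.03 and -0.001 for all genes. Without dox replicate 1 the dox median was 0.02. By family, 3 of 16 integrin alpha subunits rose and 2 fell with dox+TCP, 1 of 8 beta subunits rose and 1 fell, 1 of 4 syndecans rose, and 6 of 25 tetraspanins rose and 2 fell. With dox, 3 of 16 alpha subunits and 1 of 8 beta subunits fell, 1 of 4 syndecans rose, and 6 of 25 tetraspanins rose and 3 fell. With arrays centred on their median in place of loess, the median of all genes shifted to 0.18 in both comparisons. The split of members moved to 17 higher and 4 lower with dox+TCP and 15 higher and 5 lower with dox. Those higher with dox included 1 alpha and 1 beta subunit. Of all 21363 genes, 3997 were then called higher and 1103 lower with dox+TCP, and 4876 higher and 1130 lower with dox. The calls needed both dox+TCP arrays. Without either of them the calls of members were lost in both comparisons, and so were those of all genes. The spread then comes from the dox pair alone. Where 1 array is left in a group, only medians are given. Without dox+TCP replicate 1 the dox+TCP median of members was 0.115, beside 0.03 for all genes. Without dox+TCP replicate 2 it was 0.078, beside 0.026.

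**Figure D1:**
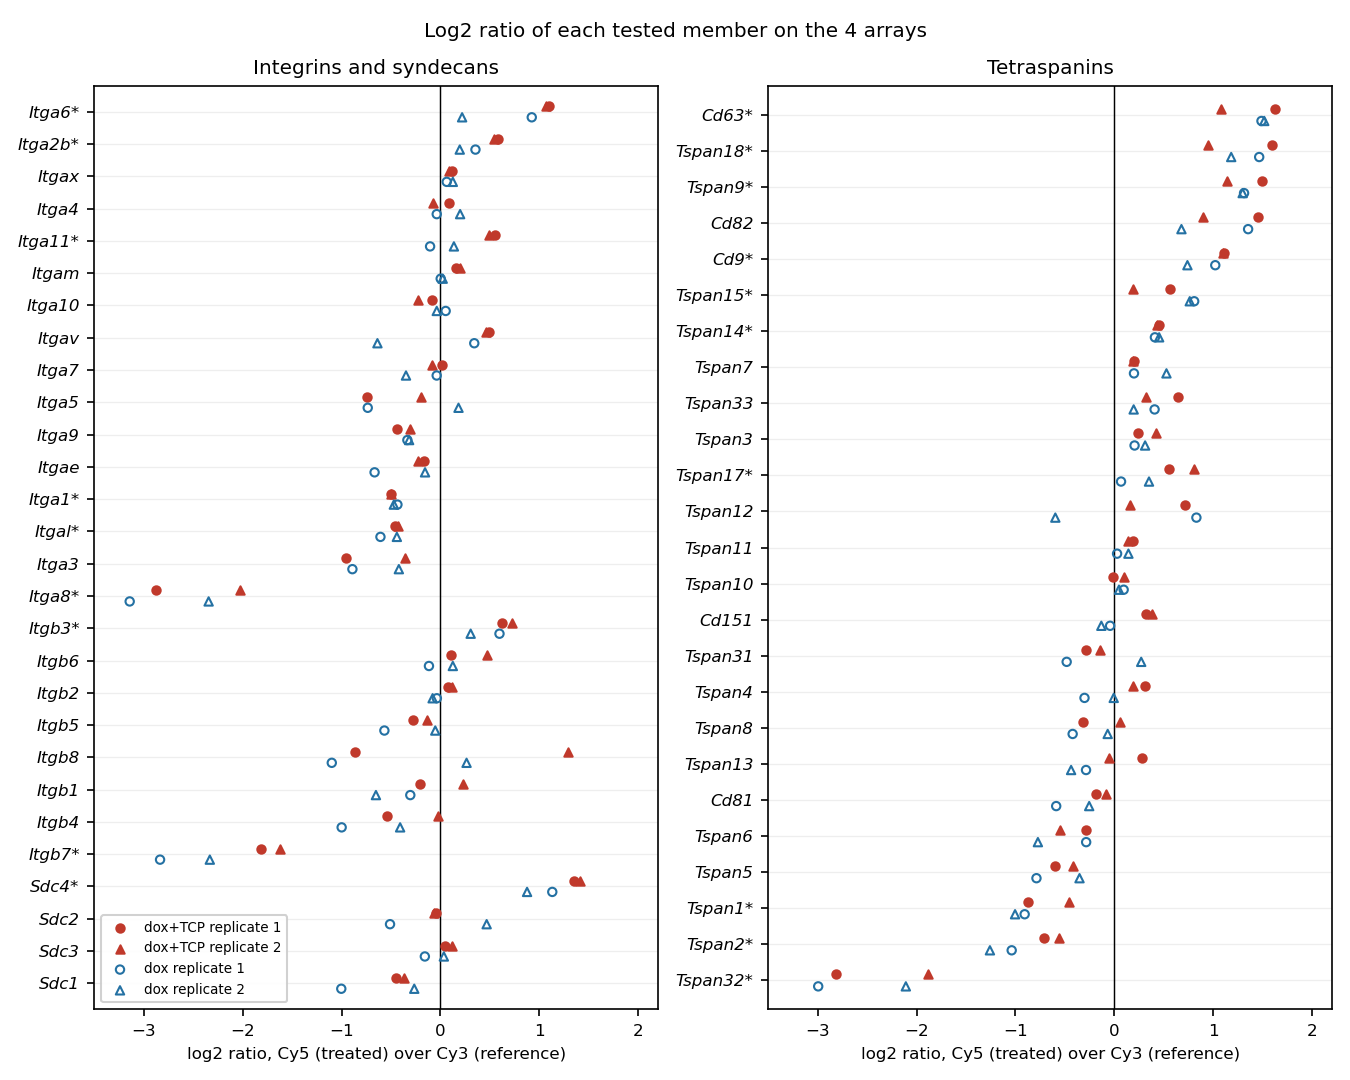
Log2 ratio of Cy5 (treated cells) over Cy3 (reference) for the 53 tested members on each of the 4 arrays (filled red, dox+TCP; open blue, dox; circles, replicate 1; triangles, replicate 2), sorted by the dox mean within each family, integrin alpha subunits at the top of the left panel, then beta subunits and syndecans; an asterisk marks the 19 members called in at least 1 comparison with the reference. Itga8, Itgb7 and Tspan32 lie below -1.5 on every array, and Cd63, Tspan9 and Sdc4 lie above 0.8 on every array.

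The deepest falls were 1 gene in each of 3 families: Itga8, Itgb7 and Tspan32. Itga8 encodes the alpha8 subunit, which pairs with beta1 and binds ligands that carry the RGD motif, nephronectin among them. Its log2 ratios were -2.87 and -2.03 on the dox+TCP arrays and -3.14 and -2.34 on the dox arrays. All 4 arrays were low, and the groups overlapped. The means were -2.45 ± 0.31 with dox+TCP (SE, adjusted p = 0.0258), 0.183 times the reference, and -2.74 ± 0.31 with dox (adjusted p = 0.023), 0.149 times the reference. The Cy5 signal was dim, with mean log2 levels of 6.88 with dox+TCP and 6.62 with dox. The lowest Cy5 levels well above background were 5.96 to 6.32 on the 4 arrays. The scanner's log2 ratios of this probe were -3.49 and -3.07 on the dox+TCP arrays and -3.92 and -3.97 on the dox arrays. The size of the fall therefore depended on the processing. A second Itga8 probe averaged -1.80 with dox+TCP and -1.95 with dox and was not called (adjusted p = 0.0699 and 0.0619, in the fit over all tested probes), and the dimmest averaged -0.10 and 0.10. The first 2 probes lie close together (chr2:12045993-12046052 and chr2:12046165-12046224, mm7), and the dimmest at chr2:12094670-12099520. The reference signal of Itga8 differed between replicates: log2 Cy3 was 9.87 and 8.79 on the dox+TCP arrays and 9.95 and 8.77 on the dox arrays, at least 2-fold dimmer on replicate 2 in both groups, as in 0.407% of all genes.

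Itgb7 encodes the beta7 subunit, which on lymphocytes pairs with alpha4 or alphaE for homing to and retention in the gut. It had log2 ratios of -1.81 and -1.62 on the dox+TCP arrays and -2.83 and -2.33 on the dox arrays. Both dox arrays were lower than both dox+TCP arrays, and all 4 were far below the reference. Means were -1.72 ± 0.16 with dox+TCP (adjusted p = 0.0187) and -2.58 ± 0.16 with dox (adjusted p = 0.0141), or 0.304 and 0.167 times the reference. Its log2 Cy3 level lay between 10.24 and 10.46 on the 4 arrays. Its alpha partners were not called: Itga4 (alpha4) averaged 0.00 with dox+TCP and 0.08 with dox, and Itgae (alphaE) -0.20 and -0.41, with a dimmer Itgae probe at 0.06 and 0.04.

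Tspan32, a tetraspanin known mainly from blood cells, had log2 ratios of -2.81 and -1.88 on the dox+TCP arrays and -2.99 and -2.11 on the dox arrays. Every array was low and the groups overlapped. The means of -2.35 ± 0.34 with dox+TCP and -2.55 ± 0.34 with dox were called (adjusted p = 0.0311 and 0.0289). Its second probe ran the same way, at -1.13 and -1.18, without being called (adjusted p = 0.0909 and 0.0854 in the fit over all tested probes). The reference was again dimmer on replicate 2, with log2 Cy3 of 10.20 and 8.97 on the dox+TCP arrays and 10.14 and 9.32 on the dox arrays.

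Among the leukocyte integrins, Itgal, the alpha subunit of LFA-1, read -0.46 and -0.43 on the dox+TCP arrays and -0.61 and -0.44 on the dox arrays. It fell with dox (mean -0.52 ± 0.09, adjusted p = 0.039) and missed the threshold with dox+TCP (-0.44 ± 0.09, adjusted p = 0.0509). Its partner Itgb2 averaged 0.10 with dox+TCP and -0.06 with dox, and Itgam and Itgax, which also pair with it, lay between 0.01 and 0.17. As markers of leukocytes themselves, 7 genes of a list of 8 were tested and none was called. Ptprc, which encodes the pan-leukocyte protein CD45, was not tested because it was too dim. At an unadjusted p under 0.05, limma gave 1 of the 7 with dox+TCP and 2 with dox, beside 33.2% and 32.8% of all genes. Their means ranged from -1.10 to 0.41 with dox+TCP and from -1.66 to 0.19 with dox, with Laptm5 the lowest in both, and the T cell marker Cd3e stood at 0.18 with dox+TCP and 0.02 with dox. The median of the 7 was 0.08 and 0.04 on the dox+TCP arrays and -0.09 and 0.04 on the dox arrays, and their part in the Itgb7, Itgal and Tspan32 values was not tested.

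The integrin subunits that rose did so by less. Itga6, the alpha6 subunit of laminin receptors and a marker of many stem and epithelial cells, had log2 ratios of 1.10 and 1.07 on the dox+TCP arrays and 0.92 and 0.22 on the dox arrays. Both dox+TCP arrays stood above both dox arrays, and dox replicate 2 stood apart. It rose with dox+TCP (1.08 ± 0.20, adjusted p = 0.0447, 2.12-fold), while the dox mean of 0.57 ± 0.20 was not called (adjusted p = 0.146). A second Itga6 probe was called in both comparisons, at 0.71 with dox+TCP and 0.46 with dox (adjusted p = 0.0249 and 0.0457 in the fit over all tested probes), and the dimmest probe in neither, at 0.15 and -0.13. The other laminin-binding subunits gave no call. Itga3 (alpha3) read -0.96 and -0.36 on the dox+TCP arrays and -0.89 and -0.42 on the dox arrays, with a second probe at -0.92 and -0.86 on average and the dimmest at 0.19 and 0.03. Itga7 averaged -0.04 with dox+TCP and -0.19 with dox. Itgb4, the beta4 partner of alpha6 in hemidesmosomes, averaged -0.28 with dox+TCP and -0.70 with dox, and its dimmest probe 0.07 and -0.02.

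Itgb3, the beta3 subunit of the vitronectin receptor and of the platelet fibrinogen receptor, read 0.62 and 0.72 on the dox+TCP arrays and 0.60 and 0.30 on the dox arrays. It rose with dox+TCP (0.67 ± 0.11, adjusted p = 0.0371, 1.59-fold), and its dox mean of 0.45 was not called (adjusted p = 0.0766). Its second probe had larger means, 1.07 with dox+TCP and 1.18 with dox, with adjusted p = 0.068 and 0.0587. Itga2b, its platelet partner, read 0.59 and 0.54 on the dox+TCP arrays and 0.35 and 0.19 on the dox arrays. It rose with dox+TCP (0.56 ± 0.09, adjusted p = 0.0338) and its dox mean of 0.27 was not called (adjusted p = 0.125). Its reference signal was well above background on 3 of 4 arrays. Of 7 platelet and endothelial markers 5 were tested, and 1 was called: Pecam1 fell in both comparisons (-1.15 with dox+TCP and -1.38 with dox, adjusted p = 0.0305 and 0.0241). Among those not called, the endothelial marker Cdh5 averaged 0.51 with dox+TCP and 0.42 with dox. It read 0.005 and 1.01 on the dox+TCP arrays, with Cy5 well above background on only 1 of them. The endothelial markers Kdr and Tek were below 0, at -0.13 and -0.24 with dox+TCP and -0.16 and -0.33 with dox. Gp9, the 1 platelet marker tested, averaged 0.18 and 0.05. The part of these cell types in the Itga2b and Itgb3 values was not tested.

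Of the collagen-binding alpha subunits, Itga11 and Itga1 were called, in opposite directions. Itga11 (alpha11) read 0.55 and 0.49 on the dox+TCP arrays and -0.11 and 0.14 on the dox arrays, so the groups did not overlap. It was called with dox+TCP (0.52 ± 0.10, adjusted p = 0.0485) and averaged 0.02 with dox (adjusted p = 0.94). Itga1 (alpha1) read -0.50 on both dox+TCP arrays and -0.44 and -0.47 on the dox arrays. It fell in both comparisons (-0.50 ± 0.08, adjusted p = 0.0336, and -0.45 ± 0.08, adjusted p = 0.0395), but its Cy5 signal was well above background on only 1 of 2 arrays in each group. Its other tested probes were dimmer and averaged 0.00 and 0.31 with dox+TCP and -0.15 and -0.02 with dox, with no call. Itga10 stood at -0.16 with dox+TCP and 0.01 with dox.

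Among the 8 subunits of RGD-binding receptors, which include those for fibronectin and vitronectin, the calls were the ones already described: Itgb3 and Itga2b rose with dox+TCP, and Itga8 fell in both comparisons. Itgb1, the shared beta1 subunit, read -0.21 and 0.22 on the dox+TCP arrays and -0.31 and -0.65 on the dox arrays, with means of 0.01 ± 0.16 and -0.48 ± 0.16 (adjusted p = 0.984 and 0.141). Its other probes averaged 0.06 and -0.13 with dox+TCP and 0.29 and 0.03 with dox, so the signs of the probes differ. Itgav (alphaV) read 0.49 and 0.46 on the dox+TCP arrays but 0.34 and -0.64 on the dox arrays. A dimmer Itgav probe averaged 0.02 with dox+TCP and 0.25 with dox. The dox replicates of Itgav were of opposite sign, as were those of Itga5. Itga5 (alpha5, the classical fibronectin receptor) read -0.74 and -0.20 on the dox+TCP arrays and -0.74 and 0.18 on the dox arrays. Itgb5 (beta5, a partner of alphaV) read -0.28 and -0.14 on the dox+TCP arrays and -0.57 and -0.05 on the dox arrays, and Itgb6 averaged 0.29 and 0.00. The groups overlapped in both genes. Itgb8 had the widest spread of any member, at -0.87 and 1.29 on the dox+TCP arrays and -1.10 and 0.26 on the dox arrays, and its other 2 tested probes averaged 0.21 and 0.05 with dox+TCP and 0.07 and -0.02 with dox. Itga9, a receptor subunit for tenascin and osteopontin, averaged -0.37 with dox+TCP and -0.33 with dox (adjusted p = 0.0642 and 0.0841), and was not called.

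Sdc4, the syndecan of focal adhesions that acts beside integrins in binding fibronectin, was the 1 syndecan called. It had log2 ratios of 1.35 and 1.41 on the dox+TCP arrays and 1.13 and 0.88 on the dox arrays. All 4 arrays were high, and both dox+TCP arrays exceeded both dox arrays. It rose with dox+TCP (1.38 ± 0.10, adjusted p = 0.0169, 2.60-fold) and with dox (1.00 ± 0.10, adjusted p = 0.0206, 2.00-fold). A second Sdc4 probe gave 1.36 and 1.02 and was called in both (adjusted p = 0.0182 and 0.0205 in the fit over all tested probes). The reference signal was brighter on replicate 2, at 10.63 and 11.87 on the dox+TCP arrays and 10.66 and 11.25 on the dox arrays. Sdc1, an epithelial syndecan, read -0.45 and -0.37 on the dox+TCP arrays and -1.0 and -0.27 on the dox arrays and was not called (adjusted p = 0.27 and 0.131). Sdc2 read -0.05 and -0.07 on the dox+TCP arrays and -0.51 and 0.47 on the dox arrays, with no call. Probes of Sdc3 disagreed. Its brightest read 0.04 and 0.12 on the dox+TCP arrays and -0.16 and 0.03 on the dox arrays without a call, while another was called in both comparisons at 0.71 and 0.59 (adjusted p = 0.0297 and 0.0395 in the fit over all tested probes).

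Cd63, a tetraspanin of late endosomes and exosomes, rose the most among the tetraspanins with dox+TCP and with dox. It had log2 ratios of 1.62 and 1.08 on the dox+TCP arrays and 1.49 and 1.51 on the dox arrays. The groups overlapped, and all 4 arrays were high. Means were 1.35 ± 0.16 (adjusted p = 0.0237, 2.55-fold) with dox+TCP and 1.50 ± 0.16 (adjusted p = 0.0213, 2.83-fold) with dox. Tspan9 read 1.49 and 1.14 on the dox+TCP arrays and 1.31 and 1.30 on the dox arrays, and rose by 1.32 ± 0.12 and 1.30 ± 0.12 (adjusted p = 0.0182 and 0.018), and its second probe was also called in both, at 0.74 and 0.62. Tspan18 read 1.60 and 0.95 on the dox+TCP arrays and 1.46 and 1.18 on the dox arrays, and rose by 1.27 ± 0.20 and 1.32 ± 0.20 (adjusted p = 0.0343 and 0.0334). In both genes all 4 arrays were high and the groups overlapped.

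Cd9, a tetraspanin known for its part in sperm-egg fusion and an associate of beta1 integrins, had log2 ratios of 1.11 and 1.10 on the dox+TCP arrays and 1.02 and 0.74 on the dox arrays. It rose in both comparisons, by 1.10 ± 0.10 with dox+TCP (adjusted p = 0.0192, 2.15-fold) and 0.88 ± 0.10 with dox (adjusted p = 0.0241, 1.84-fold). Its second tested probe averaged 0.57 and 0.55 and passed with dox+TCP only (adjusted p = 0.0498 and 0.0541 in the fit over all tested probes). Cd82, a tetraspanin studied as a suppressor of metastasis, had ratios as large but less even: 1.45 and 0.89 on the dox+TCP arrays and 1.35 and 0.68 on the dox arrays. Its means of 1.17 ± 0.24 and 1.01 ± 0.24 were not called (adjusted p = 0.0543 and 0.0722). The other two tetraspanins named by CD number were closer to 0 and not called. Cd81, a widely expressed tetraspanin, read -0.19 and -0.08 on the dox+TCP arrays and -0.59 and -0.25 on the dox arrays, and Cd151, a laminin-receptor partner, averaged 0.35 and -0.09.

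Smaller rises were seen in 3 more tetraspanins. Tspan14 and Tspan15 belong to the group that binds the protease ADAM10, as does Tspan17. Tspan14 read 0.45 and 0.43 on the dox+TCP arrays and 0.41 and 0.45 on the dox arrays and rose in both (0.44 ± 0.08 and 0.43 ± 0.08, adjusted p = 0.0412 and 0.0436). Tspan15 read 0.56 and 0.19 on the dox+TCP arrays and 0.81 and 0.76 on the dox arrays. It was called with dox (0.78 ± 0.12, adjusted p = 0.0351) and not with dox+TCP (0.38 ± 0.12, adjusted p = 0.127). Tspan17 read 0.55 and 0.81 on the dox+TCP arrays and 0.07 and 0.35 on the dox arrays. It was called with dox+TCP (0.68 ± 0.12, adjusted p = 0.0451) and not with dox (0.21 ± 0.12, adjusted p = 0.345). Adam10 itself averaged 0.16 with dox+TCP and 0.20 with dox (adjusted p = 0.362 and 0.278). Its Cy3 signal was well above background on only 2 arrays, and its Cy5 signal on only 1 of the dox arrays. These ratios therefore cannot show whether Adam10 changed. Tspan5 and Tspan33, also of the group that binds ADAM10, averaged -0.51 and 0.48 with dox+TCP and -0.57 and 0.30 with dox, with no call. A call in 1 comparison and not the other is no test of their difference.

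Apart from Tspan32, Tspan2 and Tspan1 fell. Tspan2, studied in the nervous system, read -0.72 and -0.56 on the dox+TCP arrays and -1.04 and -1.26 on the dox arrays. The groups did not overlap, with dox the lower. It fell by 0.64 ± 0.10 with dox+TCP (adjusted p = 0.0368) and 1.15 ± 0.10 with dox (adjusted p = 0.018). Its second probe stood at -0.33 and -0.34 (adjusted p = 0.0759 and 0.0748). Tspan1 read -0.87 and -0.46 on the dox+TCP arrays and -0.91 and -1.0 on the dox arrays. It fell with dox (mean -0.96 ± 0.13, adjusted p = 0.0301) and missed the threshold with dox+TCP (-0.67 ± 0.13, adjusted p = 0.0516), where its second probe was called (-0.52, adjusted p = 0.045 in the fit over all tested probes).

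**Figure D2:**
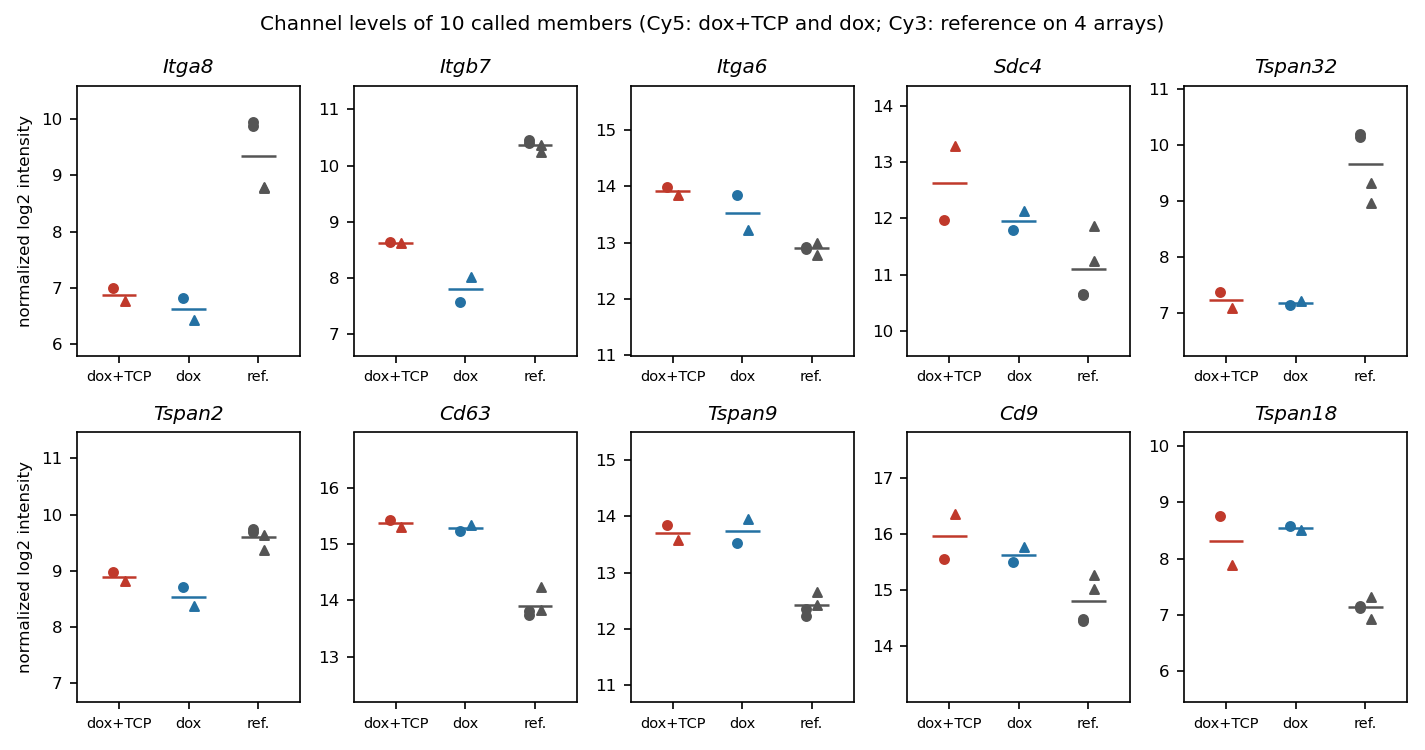
Normalized log2 intensity of 10 called members in Cy5 (red, dox+TCP, 2 arrays; blue, dox, 2 arrays) and in Cy3 (grey, the reference on all 4 arrays; circles, replicate 1; triangles, replicate 2; lines, means), each panel spanning the same range on its own axis. The reference points of Itga8, Tspan32 and Sdc4 split by replicate number, while those of Itgb7 lie between 10.24 and 10.46.

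The remaining 10 tetraspanins were not called in any comparison. With dox+TCP their means ran from -0.42 for Tspan6 to 0.44 for Tspan12, and with dox from -0.53 for Tspan6 to 0.36 for Tspan7. Tspan3, at 0.33 and 0.26, Tspan4, at 0.25 and -0.15, and Tspan13, at 0.11 and -0.36, lay within that range, as did Tspan8, Tspan11 and Tspan31. So did Tspan10, also of the group that binds ADAM10, at 0.04 with dox+TCP and 0.07 with dox. Tspan12, which acts with Norrin in frizzled signalling in the retina, read 0.71 and 0.16 on the dox+TCP arrays and 0.83 and -0.60 on the dox arrays. Signs that differ between replicates were found in 7 of 53 members with dox+TCP (20.0% of all genes) and in 11 with dox (30.1% of all genes).

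Promoter windows are shown for the 3 deepest falls and for Sdc4, because these carry the largest called change in each of the 4 families. Each holds 250 bases before and 50 after the gene's start (RefSeq, GRCm38.p6), with the letters CG in capitals wherever they follow each other, the dinucleotide that DNA methylation acts on.
Itga8 promoter, chr2:12301895-12302194 (minus strand): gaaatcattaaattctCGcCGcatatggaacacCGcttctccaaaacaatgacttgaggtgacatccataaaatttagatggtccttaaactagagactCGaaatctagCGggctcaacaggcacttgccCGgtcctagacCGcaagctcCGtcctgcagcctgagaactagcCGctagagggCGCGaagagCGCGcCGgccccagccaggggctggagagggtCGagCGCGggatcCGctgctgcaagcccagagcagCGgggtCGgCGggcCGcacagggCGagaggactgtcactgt
Itgb7 promoter, chr15:102231886-102232185 (minus strand): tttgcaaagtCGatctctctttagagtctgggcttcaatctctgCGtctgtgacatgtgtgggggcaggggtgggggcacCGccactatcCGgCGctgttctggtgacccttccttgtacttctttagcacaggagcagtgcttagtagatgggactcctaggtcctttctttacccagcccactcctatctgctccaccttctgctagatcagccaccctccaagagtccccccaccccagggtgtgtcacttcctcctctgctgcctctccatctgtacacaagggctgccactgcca
Tspan32 promoter, chr7:143004796-143005095 (plus strand): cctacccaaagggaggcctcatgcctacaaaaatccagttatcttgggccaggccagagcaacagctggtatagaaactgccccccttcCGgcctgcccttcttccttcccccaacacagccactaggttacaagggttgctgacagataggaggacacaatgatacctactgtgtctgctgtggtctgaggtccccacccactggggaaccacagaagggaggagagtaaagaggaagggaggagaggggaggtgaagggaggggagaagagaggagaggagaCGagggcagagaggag
Sdc4 promoter, chr2:164443139-164443438 (minus strand): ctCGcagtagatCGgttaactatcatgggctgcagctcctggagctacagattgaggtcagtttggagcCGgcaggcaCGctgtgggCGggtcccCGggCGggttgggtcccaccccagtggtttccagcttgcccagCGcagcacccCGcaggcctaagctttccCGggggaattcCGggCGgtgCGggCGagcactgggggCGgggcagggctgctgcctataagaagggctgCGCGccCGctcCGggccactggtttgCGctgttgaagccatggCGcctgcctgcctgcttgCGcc
Itga8 held 23 CG dinucleotides, Itgb7 5, Tspan32 2 and Sdc4 22, beside a median of 7 over 32851 promoter windows. Windows were found for 15 of the 19 called members, and their counts overlapped: windows of members called higher held 3 to 33 and those of members called lower 2 to 23. The GC box GGGCGG, searched on both strands, occurred 4 times in the Sdc4 window and in none of the other 3, and in 35.7% of all windows. Neither the octamer ATGCAAAT, which Oct4 and its relatives bind, nor the TATA box TATAAA was found in these 4 on either strand. They occur in 1.74% and 13.6% of all windows. Among all members the octamer was found in 2 of 56 windows, those of Tspan8 and Tspan13, which were not called.

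Adding TCP to doxycycline gave no call. For dox+TCP against dox, 0 of 53 members passed limma's test at an adjusted p under 0.05, as 0.0% of all genes did, and every member's adjusted p was 0.996 or more. At an unadjusted p under 0.05 there were 4 members, Itgb7, Cd151, Itga11 and Tspan2, beside 4.38% of all genes. Itgb7 was 0.87 ± 0.22 higher with dox+TCP than with dox (limma, unadjusted p = 0.0197), 1.82-fold, with a difference of 1.02 between the replicate 1 arrays, which shared a slide, and 0.71 between the replicate 2 arrays. Cd151 was 0.44 ± 0.11 higher, at 0.32 and 0.38 on the dox+TCP arrays and -0.04 and -0.13 on the dox arrays (limma, unadjusted p = 0.0204). Tspan2 was 0.51 ± 0.15 higher and Itga11 0.50 ± 0.14 higher (limma, unadjusted p = 0.0265 and 0.0246). All 4 were higher with dox+TCP on both replicates.

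Most members leaned the same way. The mean was higher with dox+TCP than with dox in 40 of 53 members, where 59.3% of all genes were, and the median difference was 0.16, beside 0.04 for all genes. Without dox replicate 1 that median was 0.05, beside 0.03 for all genes, and with arrays centred on their median 0.10, beside 0.01. The 2 groups did not overlap, with dox+TCP the higher, in 19 of 53 members (20.2% of all genes), and with dox+TCP the lower in 4 (12.9% of all genes). All 8 beta subunits were higher on average, from 0.10 for Itgb5 to 0.87 for Itgb7, with a median of 0.35. That median was 0.17 without dox replicate 1, 0.15 without dox+TCP replicate 2, 0.57 without dox+TCP replicate 1, 0.155 with local backgrounds as read and 0.13 with the probes of a gene averaged. Dimmer probes of some beta subunits were lower with dox+TCP than with dox, with differences of -0.23 and -0.15 for Itgb1, -0.11 for Itgb3 and -0.09 for Itgb6. The count of members higher with dox+TCP was 43 of 53 within the slide that held both replicate 1 arrays and 35 between the replicate 2 arrays. With arrays centred on their median it was 31 of 53 members and 7 of 8 beta subunits, and without dox replicate 1 it was 30 and 6. The share of all genes was not counted for these pairs and settings, so these counts alone do not set members apart from all genes. Itgav had the largest difference among the alpha subunits, 0.62 ± 0.37 (limma, unadjusted p = 0.174). No test was made of these counts. The largest differences the other way were -0.41 ± 0.17 for Tspan15 (limma, unadjusted p = 0.0796) and -0.19 ± 0.40 for Itga5 (limma, unadjusted p = 0.657). Among the syndecans Sdc4 differed by 0.38 ± 0.14 (limma, unadjusted p = 0.0603) and Sdc2 by -0.03 ± 0.37.

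**Figure D3:**
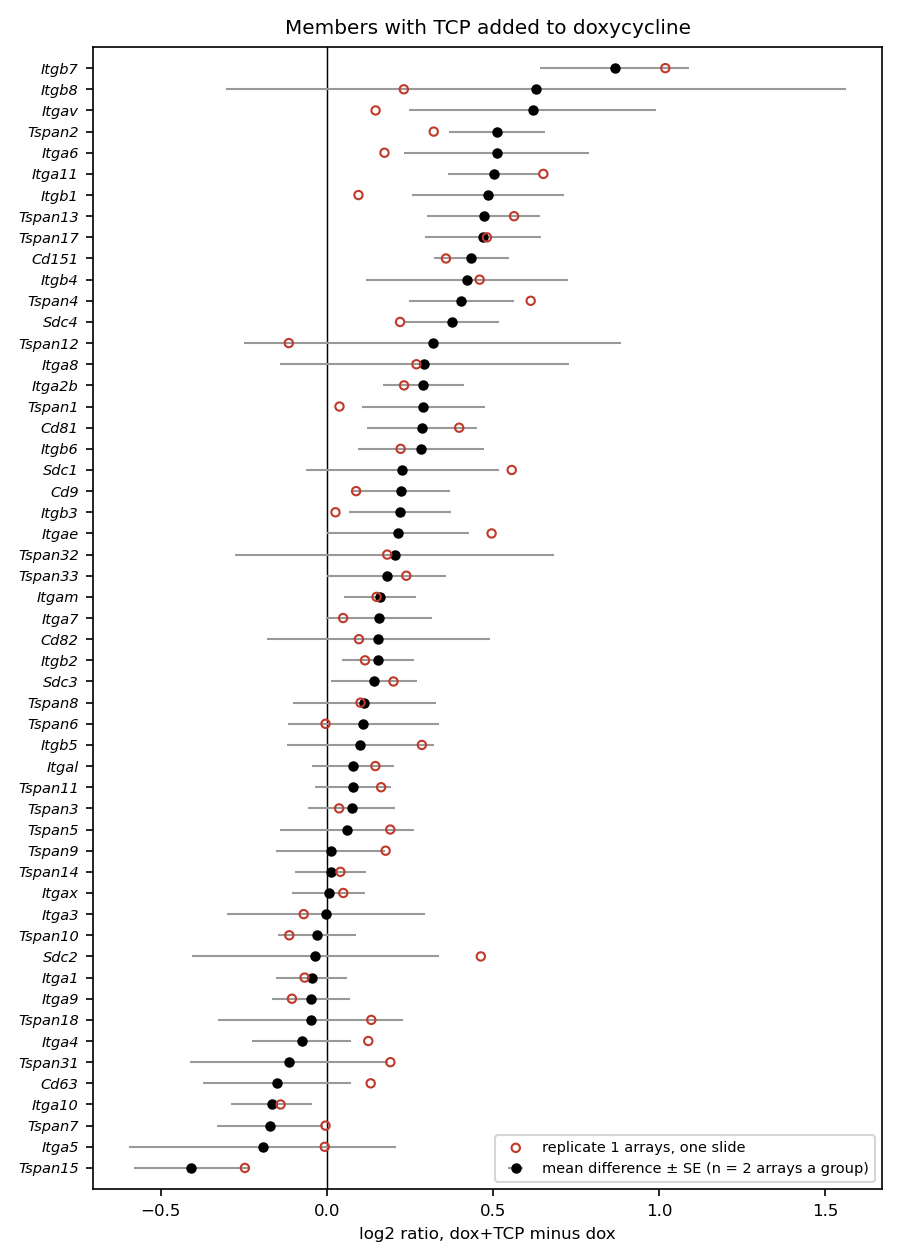
Difference in log2 ratio, dox+TCP minus dox, for the 53 tested members (black, mean difference with its standard error from the fit over 4 arrays; open red, the difference between the replicate 1 arrays on 1 slide). Itgb7 stands at the top at 0.87 and Tspan15 at the bottom at -0.41; none was called.

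The reference channel differed between replicate numbers for part of the members. Cd82 was the 1 member whose Cy3 signal was at least 2-fold brighter on replicate 2 in both groups: its log2 Cy3 was 8.44 and 10.74 on the dox+TCP arrays and 8.53 and 10.76 on the dox arrays. Its Cy5 signal differed between the same arrays, at 9.89 and 11.63 with dox+TCP and 9.88 and 11.44 with dox. Tspan1, Sdc1, Sdc4, Tspan33 and Cd9 were also brighter on replicate 2 in both pairs, by 0.54 to 1.24 log2 units, and Itga8 and Tspan32 were dimmer, by 0.82 to 1.22. Most trophoblast markers were brighter on replicate 2 in this channel, as Cd82 was. Eomes was slightly dimmer on replicate 2 in both groups, and Hand1 was dimmer on the dox+TCP arrays only. The median difference of the trophoblast markers, replicate 2 minus replicate 1, was 1.31 log2 units with dox+TCP and 1.65 with dox. For all genes it was 0.03 and 0.08. Part of the fibroblast markers of the feeder layer ran the other way, as Itga8 and Tspan32 did. Of these markers 3 of 8, Col1a1, Col1a2 and S100a4, were at least 2-fold dimmer on replicate 2 in both groups, as were 0.407% of all genes. The median difference over the 8 was only -0.17 on the dox+TCP arrays and -0.24 on the dox arrays. Lum was brighter on replicate 2 in both groups. For Col1a1, a chain of type I collagen, log2 Cy3 was 10.71 and 8.22 on the dox+TCP arrays and 10.67 and 8.42 on the dox arrays. Of the leukocyte markers, Laptm5 was dimmer in the same way and Csf1r brighter, and of the platelet and endothelial markers Cdh5 was brighter. The part of these cell types in the members' values was not tested.

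**Figure D4:**
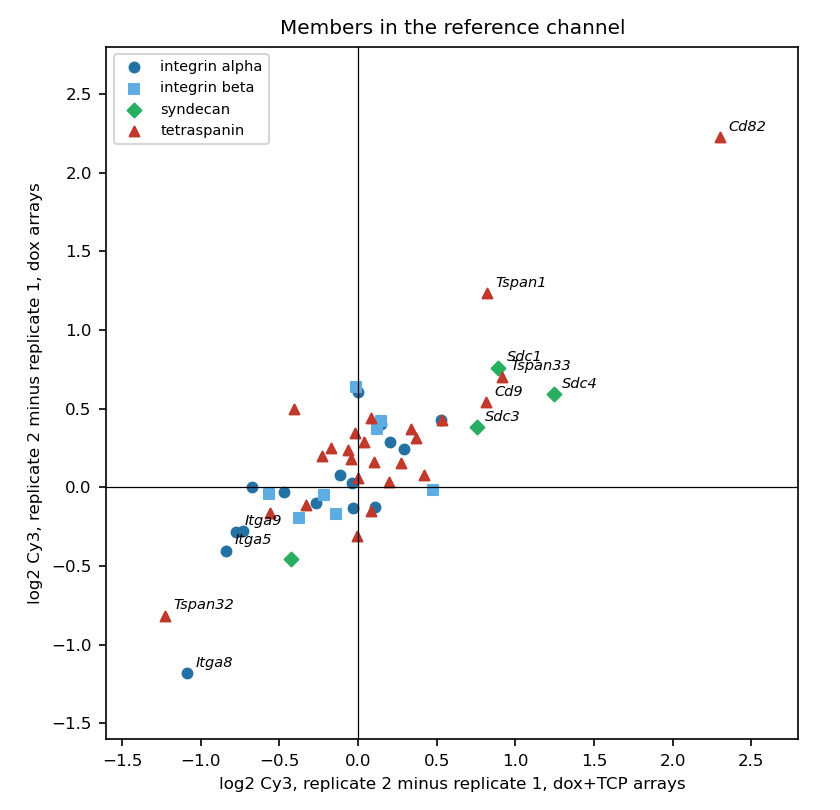
Normalized log2 Cy3 (reference) of the 53 tested members, replicate 2 minus replicate 1, on the dox+TCP arrays (x axis) and the dox arrays (y axis), with a symbol for each family and names for members that differ by 0.75 or more in either pair. Cd82 lies apart at 2.30 and 2.23, and Itga8 and Tspan32 lie at the low end.

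Ligands and partners of these proteins, were listed with earlier results of these data known, and their counts stand beside the 15.4% of all genes called with dox+TCP and 14.6% with dox. Of 20 integrin ligands tested, 4 were called in each comparison: 4 rose and none fell with dox+TCP, and 3 rose and 1 fell with dox. The ligands that rose were Col4a1 and Col4a2, the chains of type IV collagen, and Lamb1, a laminin chain, in both comparisons, and the laminin chain Lama5 with dox+TCP. Col4a1 read 1.32 and 1.35 on the dox+TCP arrays and 0.97 and 1.01 on the dox arrays, with means of 1.33 and 0.99 (adjusted p = 0.0165 and 0.016). Other laminin and nidogen genes of the list were not called, and their signs differed: Nid1 averaged 0.76 with dox+TCP and 0.76 with dox, Nid2 -0.85 and -1.41, Lama1 -0.40 and -0.50, and Lamc1 -0.25 and -0.34. Spp1 (osteopontin, an RGD ligand of beta3 integrins) read -1.06 and -1.78 on the dox+TCP arrays and -2.51 and -3.82 on the dox arrays. It fell with dox (-3.17, adjusted p = 0.0257) and not with dox+TCP (-1.42, adjusted p = 0.0958). Fn1 (fibronectin) was not called, with means of -0.59 and -0.32.

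Of 28 adaptors, activators and kinases of integrins tested, 1 rose and 2 fell in each comparison. Tns3, a tensin that binds beta tails, fell by 1.94 with dox+TCP and 1.53 with dox (adjusted p = 0.0165 and 0.015), and Eif6, which binds the beta4 tail and is listed under its older name Itgb4bp, fell by 0.77 and 0.54. Tns1 rose with dox+TCP (0.92, adjusted p = 0.025), and Parva, a partner of integrin-linked kinase, rose with dox (0.91, adjusted p = 0.0466). Of 25 heparan sulphate proteoglycans, their enzymes and syndecan partners tested, 1 rose and 3 fell in each comparison. Sulf1, which trims sulphate from the chains, read -2.21 and -1.88 on the dox+TCP arrays and -2.20 and -2.22 on the dox arrays and fell in both (adjusted p = 0.0165 and 0.0138). Ext1, which builds the chains, fell by 1.06 and 1.19, the glypican Gpc4 fell by 0.86 and 0.79, and Extl1 rose by 1.22 and 1.21. Of 16 other tetraspanin-fold genes and tetraspanin partners tested, none was called with dox+TCP, and Epcam rose with dox (0.56, adjusted p = 0.0435). At an unadjusted p under 0.05 limma gave 2 of the 16 with dox+TCP, beside 33.2% of all genes. No gene of the 4 lists was called for dox+TCP against dox by limma. An unadjusted p under 0.05 was found for 2 ligands and 1 adaptor, beside 4.38% of all genes.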

How the data were processed

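RNA of 4 two-colour Agilent arrays (2 dox+TCP, 2 dox) was analysed. The deposited spot signals and their local backgrounds are linear intensities written by Agilent Feature Extraction 10.1.1.1, and probe positions refer to mm7 (NCBI35), per the file headers. That software also subtracted background, normalized the dyes and wrote a log10 ratio per spot, per the file headers, and the deposited log10 values of the series matrix matched it within 0.005. The dyes come from the labels. Other upstream steps: not given in the sources used.

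Mean signals were corrected with limma 3.58.1 (R 4.3.3; normexp, offset 50), after local backgrounds over 2 times an array's median were set to that median (11 to 112 spots per array and channel), and normalized by loess within each array. Levels per channel were then scaled with Aquantile. Control spots (1639 of 45018) had no weight in the loess and were left out, and outlier spots (119 to 176 per array) were set to missing. Testing required a probe to be well above background in Cy5 on both arrays of at least 1 group, or in Cy3 on all 4 arrays. limma's lmFit and eBayes were run with a mean per group over 4 arrays (2 residual and 1.79 prior degrees of freedom), with Benjamini-Hochberg adjustment over 21363 genes. The number of arrays limits the precision: the median SE was 0.11 for a group mean and 0.16 for a difference. The same code was tested on simulated data. Both replicate 1 arrays shared a slide; the replicate 2 arrays lay on 2 others, and that of dox+TCP was scanned on another day.

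Gene names are those in the files, and a table of GRCm38.p6, used to update names, matched 22951 probes through an accession, 6659 through a symbol and 3109 through a synonym; 3 probes of Itgav and Itga9 carry clone names in the files and are not members. All members are accounted for; named with full values are those called, the highest, lowest and brightest of each family, and members whose probes differ, plus up to 4 called genes per pathway list. The members and lists were chosen with earlier results of these data known. Alternatives covered background, offset, normalization, the deposited ratios, the filter, probe averaging, eBayes with an intensity trend, blocks, and leaving out each array.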

Additional observations from a re-analysis of the deposited data

How the results depend on the processing

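No called member changed sign in any alternative run, but the calls were less steady than the signs. With dox the calls of Tspan14, Itgal and Itga1 were lost in more runs than those of other members. With dox+TCP the call of Tspan2 was. The counts of called members lay between 14 and 18 with dox+TCP and 13 and 14 with dox with no background subtraction, an offset of 16, backgrounds limited to 10 times the median, the scanner's log ratios, the series matrix values, no filter or a stricter one, averaged probes and an intensity trend. With local backgrounds as read, 0 members were called with dox+TCP and 0 with dox, as were 0 of all genes. At an unadjusted p under 0.05 limma gave 9 and 6 members, beside 1967 and 1894 of 21363 genes. Only dox+TCP replicate 2 was scanned on another day, so scan day as a block takes up that array alone. The fit is then the same as without dox+TCP replicate 2, with a dox+TCP median of members of 0.078, and cannot test scan day. Fitted on the arrays of 1 group only, 22 members were called with dox+TCP and 0 with dox (16 unadjusted). Of all 21363 genes, 5921 were then called with dox+TCP and 0 with dox (5132 unadjusted). These fits repeat those that leave out an array of the other group, because the spread comes from the same pair. With median centring 21 were called with dox+TCP and 20 with dox, beside 5100 and 6006 of 21363 genes. Cd151 with dox then stood at 0.56 in place of -0.09 (adjusted p = 0.0304), and the cause was not tested. Leaving out either dox+TCP array removed the calls of members and of all genes alike, and leaving out either dox array did not. For dox+TCP against dox the count was 0 in every alternative. Where an array is left out, the lone array is assumed to vary like the other group, and 1 residual degree of freedom remains.

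Arrays of the same replicate number deviated together (r = 0.472 across genes), but the labels do not say that the number marks a shared batch, so the pairing is not used above. With a replicate block as a fixed term, 22 members were called with dox+TCP, 18 with dox and 0 for dox+TCP against dox, and 5148, 4882 and 0 of all genes. A random block by duplicateCorrelation, for replicate or slide, was not run to a result because 4 arrays gave no estimate. The block for the comparisons with the reference was chosen after seeing the data.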
